A study of Mus musculus with 6 samples.

Results

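Chemokines are small secreted proteins that bind G protein-coupled receptors and guide the movement of leukocytes, and they are grouped into CC and CXC families by the spacing of their first cysteines. Macrophages and other myeloid cells release chemokines that recruit T cells, NK cells, monocytes and granulocytes, whereas CXCL12 is made mainly by stromal cells and retains hematopoietic cells in the bone marrow. The 10 chemokine ligand genes described here were taken by name from the 54532 genes measured, from a list drawn up with earlier results of these data known. They are 4 CXC genes, Cxcl9, Cxcl10, Cxcl12 and Cxcl16, and 6 CC genes, Ccl3, Ccl4, Ccl5, Ccl6, Ccl9 and Ccl24.

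RNA-seq was performed on 6 libraries from C57BL/6 mice, 1 library per condition. Macrophages came from WT mice (no leukemia, given PBS), WT/FE mice (no leukemia, given iron dextran), MA9 mice (AML started by transplanted cells carrying the MLL-AF9 fusion gene, given PBS) and MA9/FE mice (the same leukemia, given iron dextran). Leukemia cells came from MA9 and MA9/FE mice. The leukemia cells carried a retroviral MLL-AF9 construct that also encodes GFP, so each leukemia is a model driven by 1 introduced fusion gene. By their labels the macrophages were of the spleen and the leukemia cells of the BM, but the study's methods describe GFP-negative F4/80+ macrophages sorted from BM, and this was not settled here. The labels give no ages, the study's methods describe young adult mice, and any pooling of animals is not given in the sources used here.

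With 1 library per condition there is no replicate error, so no test was made and every difference below is between 2 libraries. Levels are FPKM (fragments scaled to exon length and library depth). Being per length, they are set side by side between genes. The length is that of all annotated exons of a gene (660 bases for Ccl4 and 3045 for Ccl9). It may exceed that of the transcript present, which limits comparisons and shares between genes. Values of macrophages are listed as WT, WT/FE, MA9, MA9/FE and those of leukemia cells as MA9, MA9/FE. The depth was between 16085349 and 19518360 reads per library. Intervals are 95% counting intervals on the reads behind each value and cover counting error only. In bulk RNA fewer cells of a type and less RNA per cell cannot be told apart. The macrophage libraries also carried RNA of other cells. The 14 macrophage markers (Adgre1, Csf1r, C1qa and others) were all detected and summed to between 391 and 930 FPKM, but the 8 B cell markers summed to between 1093 and 2008 FPKM and the 8 NK cell markers to between 157 and 225 FPKM. In the leukemia libraries, B cell markers summed to 19.2 and 18.3 FPKM and NK cell markers to 49.6 and 52.7 FPKM.

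Cxcl9 and Cxcl10 encode interferon-inducible ligands of CXCR3, the receptor that brings activated T cells and NK cells to inflamed tissue. The genes are neighbours on the minus strand of chromosome 5 in GRCm38, with Cxcl9 at chr5:92321347-92328079 and Cxcl10 at chr5:92346638-92348889, a gap of 18.6 kb. Because both were low in leukemia cells, the 250 bases before each RefSeq start (GRCm38.p6, minus strand, chr5:92328080-92328329 and chr5:92348890-92349139) are shown, written 5′ to 3′ along the gene, with matches to the searched motifs in capitals.
Cxcl9: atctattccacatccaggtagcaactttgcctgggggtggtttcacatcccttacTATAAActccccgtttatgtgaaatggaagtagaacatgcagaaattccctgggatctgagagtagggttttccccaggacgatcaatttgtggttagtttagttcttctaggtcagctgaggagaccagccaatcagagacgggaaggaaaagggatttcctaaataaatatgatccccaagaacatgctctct
Cxcl10: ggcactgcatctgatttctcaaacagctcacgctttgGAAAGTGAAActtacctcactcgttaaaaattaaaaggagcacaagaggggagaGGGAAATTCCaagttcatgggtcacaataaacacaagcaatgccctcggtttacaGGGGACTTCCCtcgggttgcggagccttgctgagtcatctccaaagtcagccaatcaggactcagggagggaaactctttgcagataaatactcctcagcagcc
The motifs, searched on both strands, were the interferon-stimulated response element (ISRE) GAAANNGAAA, the GAS element TTCNNNGAA, the STAT6 site TTCNNNNGAA, the NF-kappaB site (by name) and the TATA box TATAAA. Counting back from the start, the capitals of Cxcl10 are an ISRE match at -213 to -204 and NF-kappaB matches at -159 to -150, -104 to -95 and -103 to -94, of which the last pair overlap. The capitals of Cxcl9 are a single TATA match at -195 to -190. ISRE letters were present in 2.98% of all 32851 promoter windows of the same length, NF-kappaB letters in 7.25%, GAS letters in 7.02%, STAT6 letters in 5.85% and TATA letters in 12.4%. Both windows also hold the same 11-base run, CAGCCAATCAG, starting at -68 in Cxcl9 and at -57 in Cxcl10. A match of letters is a description and not a shown binding site.

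The level of Cxcl9 was 10.7 (WT), 7.91 (WT/FE), 13.5 (MA9) and 10.8 FPKM (MA9/FE) in macrophages, and 1.06 and 0.297 FPKM in MA9 and MA9/FE leukemia cells. The level of Cxcl10 was 3.50, 3.33, 5.07 and 5.38 FPKM in the same macrophage libraries and 1.96 and 0.746 FPKM in the leukemia libraries. Both genes were therefore lower in each leukemia library than in any macrophage library. The order of Cxcl9 ran from MA9 macrophages down to MA9/FE leukemia cells, with MA9/FE and WT macrophages within counting error of each other. For Cxcl10, MA9/FE and MA9 macrophages did not differ beyond counting error, nor did WT and WT/FE macrophages. Cxcl10 overlaps Art3 on the opposite strand, whose level did not exceed 0.439 FPKM in any library.

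**Figure D1:**
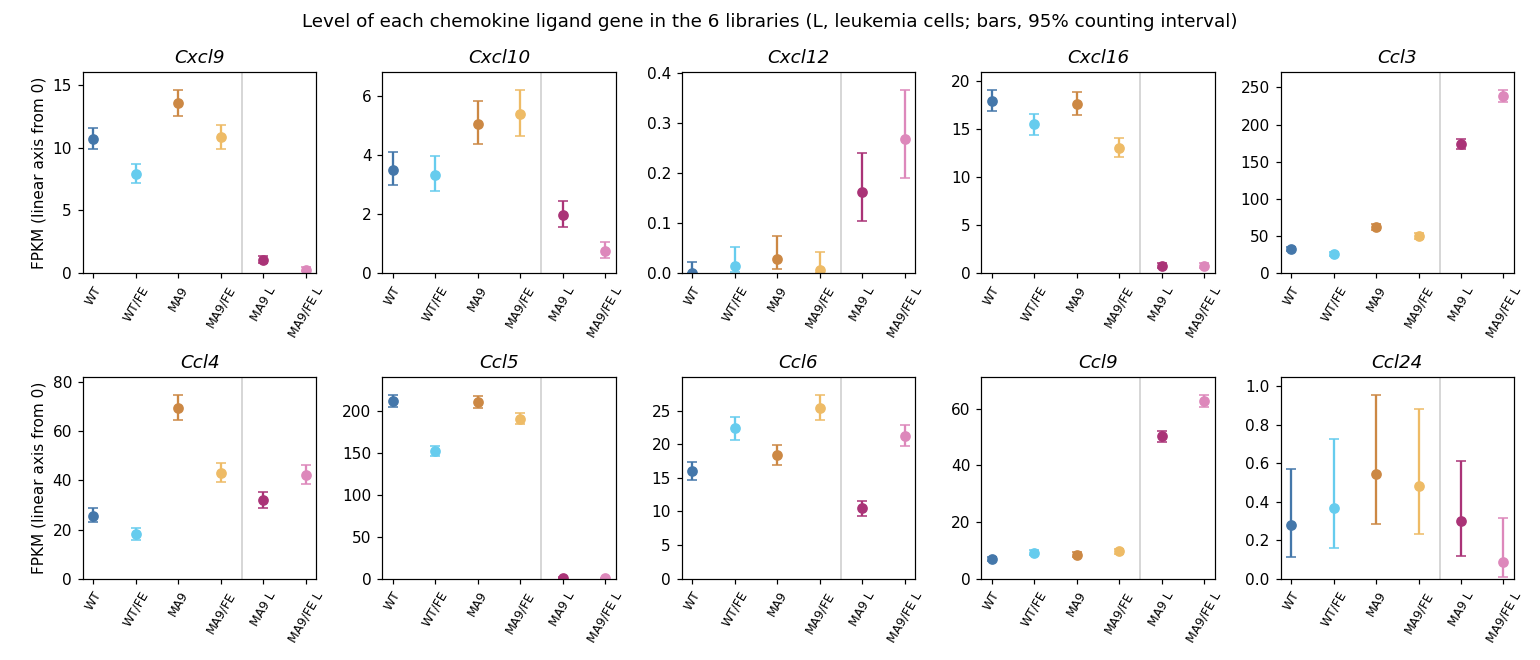
Level of each of the 10 genes in the 6 libraries on linear FPKM axes that start at 0 (points; bars, 95% counting interval; L, leukemia cells, to the right of the grey line). Cxcl9, Cxcl10, Cxcl16 and Ccl5 lie lower, and Ccl3, Ccl9 and Cxcl12 higher, in both leukemia libraries than in all 4 macrophage libraries.

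Ccl3, Ccl4 and Ccl5 encode inflammatory ligands that recruit monocytes and T cells, and Ccl3 and Ccl5 act through CCR1. Together with Ccl6 and Ccl9 they lie on chromosome 11 in the order Ccl5, Ccl9, Ccl6, Ccl3 and Ccl4, with gaps of 42.4, 9.25, 54.8 and 13.2 kb (Ccl5 at chr11:83525778-83530518 and Ccl3 at chr11:83647844-83649355 on the minus strand, and Ccl4 at chr11:83662584-83664683 on the plus strand). Ccl5 had the highest level of the 10 genes in every macrophage library, at 211 (WT), 152 (WT/FE), 210 (MA9) and 191 FPKM (MA9/FE) in macrophages. In leukemia cells it was at 1.2 FPKM (21 reads) in the MA9 library and 0.175 FPKM (3 reads) in the MA9/FE library. The WT and MA9 macrophage values of Ccl5 did not differ beyond counting error, and no leukemia value came near a macrophage value.

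The level of Ccl3 was 32.4 (WT), 26.2 (WT/FE), 62.0 (MA9) and 50.4 FPKM (MA9/FE) in macrophages, and 173 and 238 FPKM in MA9 and MA9/FE leukemia cells. Each library of Ccl3 differed from the next in the order beyond counting error. Its neighbour Ccl4 was at 25.7, 18.1, 69.6 and 43.0 FPKM in the macrophage libraries and at 32.0 and 42.3 FPKM in the leukemia libraries. The groups of libraries overlapped for Ccl4, and MA9/FE macrophages and MA9/FE leukemia cells were within counting error of each other. Of the 6 libraries, Ccl4 was above Ccl3 in MA9 macrophages and below it in the other 5.

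Ccl6 and Ccl9 encode closely related CC ligands of CCR1 made by myeloid cells. They are adjacent on the minus strand of chromosome 11, with Ccl9 at chr11:83572919-83578636 and Ccl6 at chr11:83587882-83593087. Their 250 bases before the RefSeq start (GRCm38.p6, chr11:83578637-83578886 and chr11:83593088-83593337, minus strand) are shown because this adjacent pair differed in its pattern across cells, with the longest run of letters that both windows hold, 13 bases, in capitals.
Ccl9: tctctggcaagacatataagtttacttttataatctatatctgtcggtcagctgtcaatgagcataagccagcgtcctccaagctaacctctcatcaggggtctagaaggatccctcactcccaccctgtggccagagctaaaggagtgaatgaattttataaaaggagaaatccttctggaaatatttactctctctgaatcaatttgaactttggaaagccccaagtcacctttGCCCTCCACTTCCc
Ccl6: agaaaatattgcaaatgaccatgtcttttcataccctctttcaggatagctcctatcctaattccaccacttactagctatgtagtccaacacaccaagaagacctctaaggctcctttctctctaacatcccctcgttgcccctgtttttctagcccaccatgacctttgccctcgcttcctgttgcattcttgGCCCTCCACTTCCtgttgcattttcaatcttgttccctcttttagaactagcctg
The shared run starts at -14 in Ccl9 and at -55 in Ccl6. An NF-kappaB match was found at -35 to -26 of Ccl9 on the opposite strand, beside TATA matches at -224 to -219, -94 to -89 and -92 to -87, the last pair overlapping on opposite strands, and none of the 5 motifs was found in the window of Ccl6, Ccl3 or Cxcl12. Promoter sequences of Cxcl16, Ccl4, Ccl5 and Ccl24 were not analysed here.

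The level of Ccl9 was 6.86 (WT), 9.11 (WT/FE), 8.5 (MA9) and 9.66 FPKM (MA9/FE) in macrophages, and 50.2 and 62.5 FPKM in MA9 and MA9/FE leukemia cells. The level of Ccl6 was 16.0, 22.4, 18.4 and 25.4 FPKM in the macrophage libraries, and 10.4 and 21.3 FPKM in the leukemia libraries. Ccl9 was higher in both leukemia libraries than in any macrophage library, whereas the values of Ccl6 overlapped. Each of the 3 libraries with iron dextran had a higher Ccl6 value than its counterpart with PBS. Ccl6 overlaps E230016K23Rik on the opposite strand, which did not exceed 0.418 FPKM.

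Cxcl16 encodes a membrane-bound ligand of CXCR6 that also takes up oxidized lipoprotein, and lies at chr11:70453983-70459984 on the minus strand. Its level was 17.9 (WT), 15.5 (WT/FE), 17.6 (MA9) and 13.05 FPKM (MA9/FE) in macrophages, and 0.784 and 0.760 FPKM in MA9 and MA9/FE leukemia cells. The leukemia values were within counting error of each other and lay under all the macrophage values. Cxcl16 overlaps Zmynd15 on the opposite strand, at 2.09 to 4.36 FPKM in macrophages and 0.0625 and 0.127 FPKM in leukemia cells. The strandedness of the counting is not given in the sources used here.

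Cxcl12 (chr6:117168535-117181367, plus strand) and Ccl24 (chr5:135569937-135573049, minus strand) were close to the detection limit. Cxcl12 had 0, 2, 4 and 1 reads in macrophages and 24 and 39 reads (0.162 and 0.267 FPKM) in MA9 and MA9/FE leukemia cells. With 0 reads in the WT library, the 95% counting interval of Cxcl12 reached 0.0231 FPKM. Of the 7 stromal cell markers, Dcn was at 0 FPKM in every library, and the list summed to between 0.402 and 0.696 FPKM in macrophages and to 4.72 and 4.42 FPKM in leukemia cells, of which Pdgfrb made up 4.40 and 4.02 FPKM. Col1a1 had 4, 0, 3 and 4 reads in macrophages and 31 and 34 in leukemia cells. Col1a2 had 2, 0, 12 and 7 reads in macrophages and 13 and 20 in leukemia cells. Lepr, Pdgfra and Col3a1 had at most 8 reads in any library. The part of stromal cells in the Cxcl12 reads was not tested. Ccl24, which encodes an eosinophil-attracting ligand of CCR3, had 7, 8, 12 and 10 reads in the macrophage libraries and 7 and 2 reads in the leukemia libraries. No neighbouring pair of libraries in the order of Ccl24 differed beyond counting error. Between MA9/FE leukemia cells (2 reads) and MA9/FE macrophages (10 reads) its ratio was 0.177, with an interval of 0.0188 to 0.829.

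The make-up of the chemokine RNA differed between macrophages and leukemia cells more than its total did. The 10 genes summed to 325, 255, 405 and 349 FPKM in the macrophage libraries and to 271 and 366 FPKM in MA9 and MA9/FE leukemia cells. Ccl5 made up 65.1%, 59.6%, 51.8% and 54.6% of the sum in the macrophage libraries, but 0.444% and 0.048% in the leukemia libraries. Ccl3 made up between 9.99% and 15.3% in macrophages, and 63.9% and 65.0% in leukemia cells. Ccl9 made up at most 3.57% in macrophages, and 18.5% and 17.1% in leukemia cells. Without Ccl5, the other members summed to 113, 103, 195 and 158 FPKM in macrophages and 270 and 366 FPKM in leukemia cells.

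**Figure D2:**
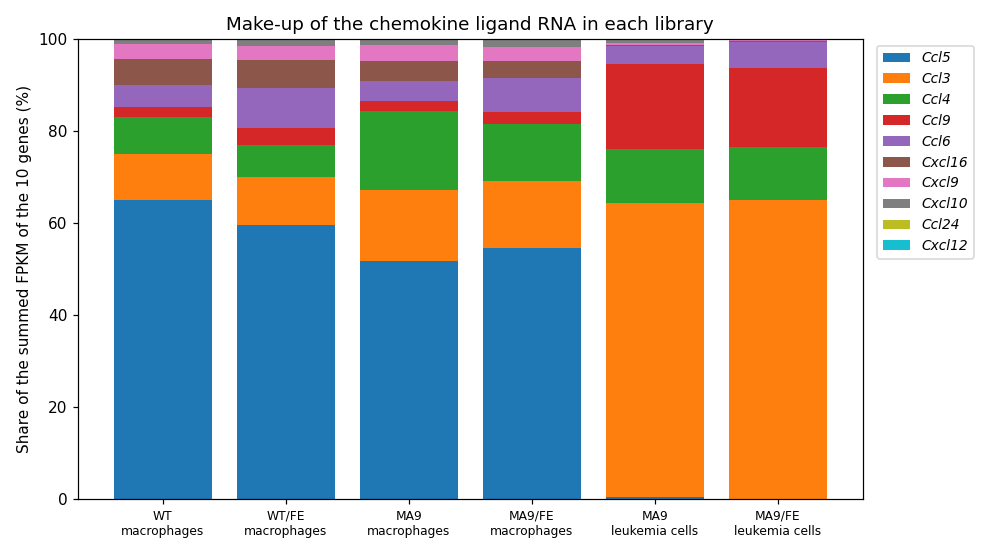
Share of each gene in the summed FPKM of the 10 genes, as stacked bars for the 6 libraries. Ccl5 makes up 51.8% to 65.1% of the sum in macrophages, and Ccl3 makes up 63.9% and 65.0% in leukemia cells.

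To compare cell kinds, leukemia cells were set against macrophages of the same condition. Whether both came from the same animals is not given in the sources used here. Differences are on the scale of log2(FPKM + 1) after TMM scaling, and a gene was called when this difference reached a fold of 2. In MA9 mice 2 of the 10 genes were called higher in leukemia cells and 5 lower, against 7.34% and 12.6% of the 17044 genes tested. In MA9/FE mice 2 were called higher and 4 lower, against 9.60% and 13.2% of 16842 genes. The median log2 difference of the 10 genes was -0.93 in MA9 and -0.36 in MA9/FE mice, beside -0.01 and -0.03 over all genes tested. Both leukemia libraries were below all macrophage libraries for 4 members and above for 3, but 34.5% and 32.7% of all genes were separated in this way as well, so the number of separated members is close to the background.

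Ccl9 and Ccl3 were the genes called higher in leukemia cells. Ccl9 had a log2 difference of 2.40 in MA9 mice (ratio 5.78, interval 5.22 to 6.4) and of 2.55 in MA9/FE mice (ratio 6.35, interval 5.77 to 7.01). Ccl3 had a log2 difference of 1.44 in MA9 mice (ratio 2.73, interval 2.52 to 2.96) and of 2.19 in MA9/FE mice (ratio 4.63, interval 4.25 to 5.05). Cxcl12 was not called, because its levels lie far under the added 1 FPKM, but its ratio in MA9 mice was 5.49 with an interval of 1.89 to 21.8. In MA9/FE mice, with 1 read in macrophages, the ratio of Cxcl12 was 34.5 with an interval of 5.83 to 1395.

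Ccl5 was 178-fold lower in MA9 leukemia cells than in MA9 macrophages (interval 116 to 288). In MA9/FE mice, where the leukemia library held 3 reads, the ratio of macrophages to leukemia cells was 1110.2 with an interval of 379.5 to 5386. Cxcl16 was 23.0-fold lower in MA9 leukemia cells (interval 16.9 to 32.0) and 17.5-fold lower in MA9/FE leukemia cells (interval 12.8 to 24.6). Cxcl9 was 13.1-fold lower (interval 9.98 to 17.4) and 37.1-fold lower (interval 22.7 to 65.5) in the same pairs. Cxcl10 was 2.65-fold lower (interval 2.03 to 3.48) and 7.36-fold lower (interval 4.99 to 11.2). All 4 were called lower in both pairs.

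Ccl4 was called lower in MA9 leukemia cells, with a log2 difference of -1.13, but differed by -0.05 in MA9/FE mice, where the interval of the ratio included 1. The labels give different tissues for the leukemia cells and the macrophages, so cell kind and tissue cannot be told apart in these pairs. Among NK cell markers, 7 of 8 were called lower in leukemia cells in both pairs, and Ncr1 was at 0 FPKM there against 10.1 to 18.4 FPKM in macrophages. The exception was Nkg7, at 48.3 and 51.2 FPKM in leukemia cells. The 8 T cell markers summed to between 66.8 and 89.9 FPKM in macrophages and to 1.83 and 1.24 FPKM in leukemia cells. NK and T cells are known to make CCL5, and their part in the level of Ccl5 was not tested.

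To address how leukemia relates to chemokine genes of macrophages, MA9 were compared with WT macrophages and MA9/FE with WT/FE macrophages. Of the 9 members that passed the filter of 10 reads in at least 1 library, only Ccl4 was called higher in each comparison and none was called lower. Of all genes compared, 3.79% of 16926 and 2.93% of 16571 were called higher and 0.910% and 1.64% lower. Cxcl12 did not pass the filter in either comparison. The median log2 difference of members that passed was 0.28 and 0.35, beside -0.003 and 0.01 over all genes tested.

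The log2 difference of Ccl4 was 1.42 in mice given PBS (ratio 2.73, interval 2.40 to 3.12) and 1.22 in mice given iron dextran (ratio 2.41, interval 2.04 to 2.86). Ccl3 lay just under a fold of 2 in both, with log2 differences of 0.93 (ratio 1.93, interval 1.72 to 2.16) and 0.94 (ratio 1.95, interval 1.71 to 2.24). The ratio of Cxcl10 was 1.46 (interval 1.18 to 1.82) and 1.64 (interval 1.30 to 2.07), and that of Cxcl9 was 1.28 (interval 1.15 to 1.43) and 1.39 (interval 1.22 to 1.58). Ccl5 had a ratio of 1.0 (interval 0.958 to 1.05) in mice given PBS and of 1.27 (interval 1.21 to 1.34) in mice given iron dextran. Cxcl16 was the member with a ratio under 1 in both, at 0.992 (interval 0.907 to 1.09) and 0.856 (interval 0.770 to 0.952).

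Neutrophil markers moved in the same comparisons. They summed to 10.9 and 8.28 FPKM in WT and WT/FE macrophages and to 1897 and 961 FPKM in MA9 and MA9/FE macrophages, with 11 of 12 and 10 of 12 called higher. In MA9 and MA9/FE leukemia cells the same list summed to 5304 and 4165 FPKM, and monocyte markers to 830 and 928 FPKM. In libraries of leukemic mice the sums of these lists therefore do not tell neutrophils or monocytes from leukemia cells. Single neutrophil markers differed in this. Ltf was at 82.2 FPKM in MA9 macrophages and 51.8 FPKM in MA9 leukemia cells, and Elane at 56.8 and 1705 FPKM. The cells that these reads came from were not tested. Basophil and mast cell markers were called higher in 6 of 6 and 4 of 6 cases, plasma cell markers in 3 of 6 in both, monocyte markers in 2 of 5 tested in both, and megakaryocyte markers in 2 and 1 of 4 tested. T cell markers were called higher in 1 of 8 (median log2 difference -0.02) and 4 of 8 (median 0.94), eosinophil markers in 1 of 4 in both, NK cell markers in 0 and 1 of 8, and leukemia and progenitor markers in 2 and 0 of 7. Of 8 B cell markers, 1 was called lower in MA9 against WT macrophages, and the lists of macrophage, endothelial and stromal markers had no call. The levels of these markers are given beside the ligands, and their part in the differences of Ccl3, Ccl4 and Ccl5 was not tested.

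**Figure D3:**
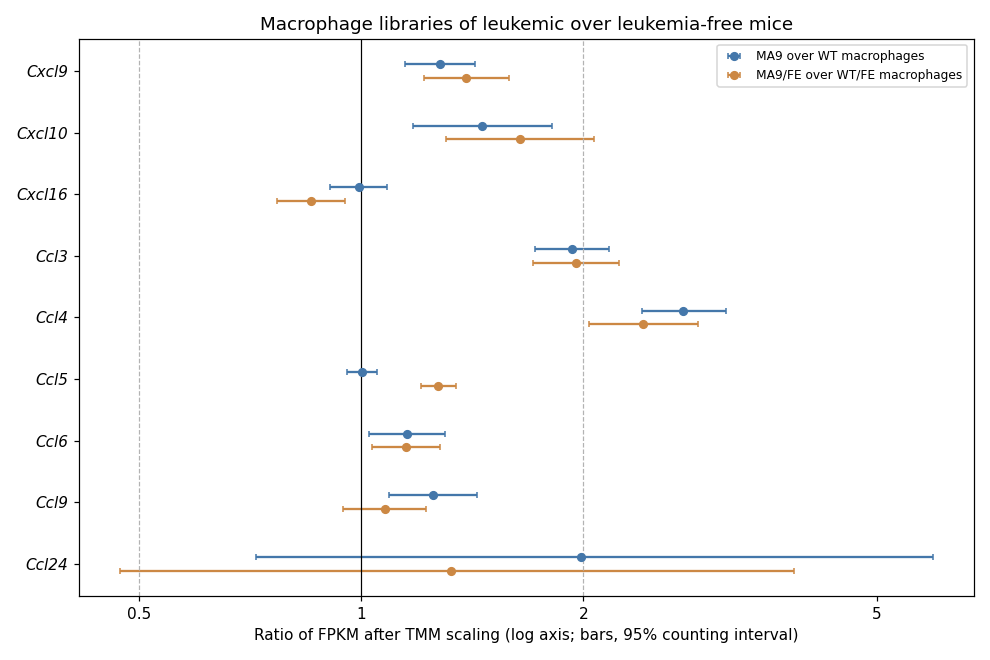
Ratio of FPKM in macrophages of leukemic over leukemia-free mice after TMM scaling, on a log axis, for 9 of the 10 genes (points; bars, 95% counting interval; solid line, a ratio of 1; dashed lines, ratios of 0.5 and 2; Cxcl12, with at most 4 reads, is left out). Ccl4 lies above 2 and Ccl3 close to 2 in both comparisons.

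To address how iron relates to chemokine genes, the libraries of mice given iron dextran were compared with their counterparts. In WT/FE against WT macrophages none of the 8 members that passed the filter was called, against 1.27% of 16754 genes. In MA9/FE against MA9 macrophages none of 9 was called, against 2.46% of 16512 genes. In MA9/FE against MA9 leukemia cells none of 9 was called on this scale, against 0.863% of 15415 genes. Each macrophage library enters both an iron and a leukemia comparison, so the values below share libraries with those above.

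Ccl6 and Ccl9 were higher with iron dextran beyond counting error in each of the 3 comparisons. The ratio of Ccl6 was 1.39 (interval 1.24 to 1.55) in WT macrophages, 1.42 (interval 1.27 to 1.58) in MA9 macrophages and 2.04 (interval 1.79 to 2.33) in leukemia cells. The ratio of Ccl9 was 1.32 (interval 1.15 to 1.51), 1.17 (interval 1.02 to 1.33) and 1.25 (interval 1.18 to 1.31) in the same comparisons. Over all genes tested, 15.6%, 29.3% and 15.6% had an interval above 1, and 18.9%, 25.9% and 14.4% had one below 1.

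Ccl3 and Ccl4 were lower with iron dextran in macrophages and higher in leukemia cells. The ratio of Ccl3 was 0.804 (interval 0.697 to 0.925) in WT macrophages, 0.833 (interval 0.749 to 0.926) in MA9 macrophages and 1.37 (interval 1.30 to 1.45) in leukemia cells. The ratio of Ccl4 was 0.702 (interval 0.587 to 0.839), 0.634 (interval 0.564 to 0.713) and 1.32 (interval 1.15 to 1.51). Cxcl9, Ccl5 and Cxcl16 also had ratios under 1 in both macrophage comparisons. For Cxcl9 and Ccl5 the interval lay under 1 in leukemia cells as well. The ratio of Cxcl9 was 0.739 (interval 0.650 to 0.838) in WT and 0.821 (interval 0.732 to 0.921) in MA9 macrophages. The ratio of Ccl5 was 0.716 (interval 0.680 to 0.753) in WT and 0.931 (interval 0.886 to 0.978) in MA9 macrophages. The ratio of Cxcl16 was 0.860 (interval 0.783 to 0.944) and 0.760 (interval 0.686 to 0.842).

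In leukemia cells, the low CXCR3 ligands were lower still with iron dextran. Cxcl9 had 58 reads in the MA9 and 16 in the MA9/FE leukemia library, a ratio of 0.280 (interval 0.150 to 0.494). Cxcl10 had 80 and 30 reads, a ratio of 0.381 (interval 0.242 to 0.587). Ccl5 had 21 and 3 reads, a ratio of 0.145 (interval 0.0277 to 0.486). With these and Ccl6, 4 members had a fold of at least 2 on the ratio with an interval off 1, against 4.48% of all genes tested, whereas none reached it on the log2(FPKM + 1) scale, on which the difference was -0.67 for Cxcl9, -0.76 for Cxcl10, -0.91 for Ccl5 and 0.96 for Ccl6. T and NK cell markers with few reads moved both ways between the same libraries. Cd3d had 10 and 1 reads and Gzma 7 and 1, but Gzmb had 2 and 12 and Prf1 2 and 8. The part of other cells in the few reads of Cxcl9, Cxcl10 and Ccl5 was not tested.

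Macrophage markers moved with iron dextran, with 3 of 14 called higher in WT/FE against WT macrophages and 8 of 14 in MA9/FE against MA9 macrophages. Their median log2 difference was 0.93 and 1.08. The NK cell list had a median of -0.51 and 0.21 with none of 8 called. In MA9/FE against MA9 macrophages, neutrophil markers had 2 of 12 called lower (median -0.91) and basophil and mast cell markers 1 of 6 called lower (median -0.57). In the same comparison T cell markers had 2 of 8 called higher (median 0.66) and B cell markers 1 of 8 (median 0.66). Of the eosinophil markers 1 of 4 was called higher, Ccr3, but the median of that list was -0.30. In WT/FE against WT macrophages no cell type list other than the macrophage markers had a call, and the neutrophil list had a median of -0.23 over 6 tested and the T cell list of -0.37. The part of a changed mix of cells in the chemokine differences was not tested.

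**Figure D4:**
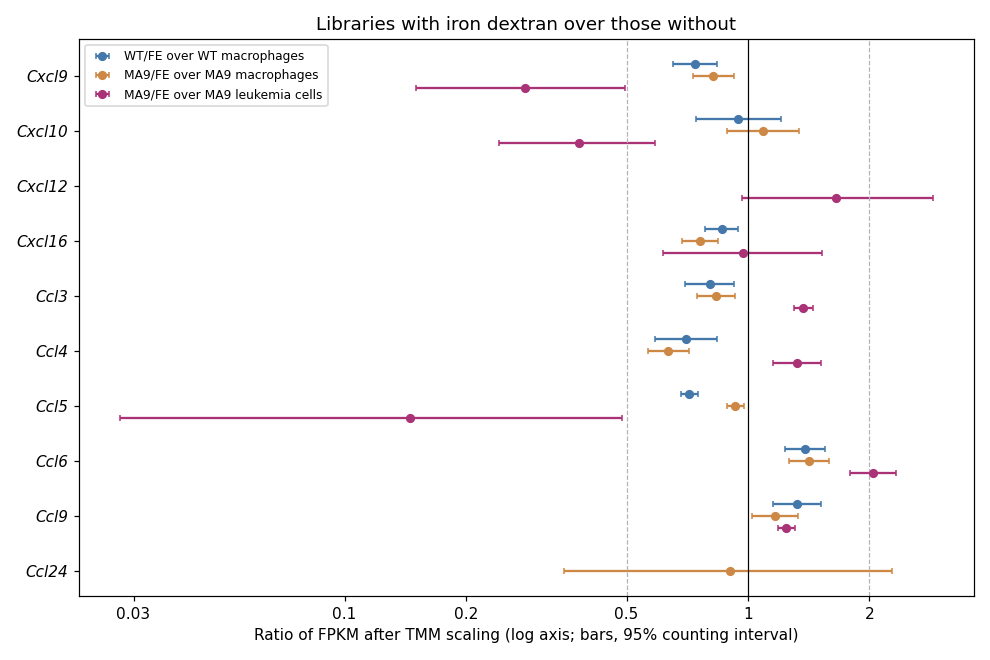
Ratio of FPKM in libraries with iron dextran over those without, after TMM scaling, on a log axis (points; bars, 95% counting interval; solid line, a ratio of 1; dashed lines, ratios of 0.5 and 2; pairs under 10 reads in both libraries are left out). Ccl6 and Ccl9 lie above 1 in all 3 comparisons, and Ccl3 and Ccl4 lie under 1 in macrophages and above 1 in leukemia cells.

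Receptors of the ligands were differently distributed over the libraries. Cxcr3, the receptor of CXCL9 and CXCL10, was at 7.40, 10.4, 25.7 and 20.8 FPKM in macrophages and at 0.286 and 0.388 FPKM in leukemia cells. It was called higher in MA9 against WT macrophages, with a log2 difference of 1.68, and reached 0.96 in MA9/FE against WT/FE macrophages. Ccr1, the receptor of CCL3, CCL5, CCL6 and CCL9, was at 2.84 to 4.13 FPKM in macrophages and at 17.3 and 20.9 FPKM in leukemia cells. Ccr1 was thus high in the same libraries as Ccl3 and Ccl9, with log2 differences of 2.13 and 2.07 between leukemia cells and macrophages.

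Cxcr4, the receptor of CXCL12, was at 77.2 to 112 FPKM in macrophages and 137 and 145 FPKM in leukemia cells, although its ligand had at most 39 reads. Ackr3, which scavenges CXCL12, had 131 to 201 reads in macrophages and 0 reads in both leukemia libraries. Cxcr6, the receptor of CXCL16, was at 2.41 to 3.32 FPKM in macrophages and 0.485 and 0.290 FPKM in leukemia cells.

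Ccr3, the receptor of CCL24, was at 8.77, 14.6, 5.82 and 17.4 FPKM in macrophages. It was called higher in MA9/FE against MA9 macrophages with a log2 difference of 1.46. Dpp4, which encodes the protease that trims CXCL9, CXCL10, CXCL12 and CCL5, was at 49.2, 46.8, 36.2 and 29.1 FPKM in macrophages and 8.75 and 10.5 FPKM in leukemia cells. The scavenging receptor genes Ackr1 and Ackr2 lay at 3.41 to 6.93 and 4.59 to 6.44 FPKM in macrophages and under 0.09 FPKM in leukemia cells. Of the 23 chemokine receptor genes 20 were tested in leukemia cells against macrophages, and 14 were called lower and 2 higher in MA9 mice, against 12.6% and 7.34% of all genes tested, and 13 lower and 3 higher in MA9/FE mice, against 13.2% and 9.60%. Cxcr5, Ccr6 and Ccr7 were at 34.1, 18.7 and 142 FPKM in MA9 macrophages and at 0.116, 0.142 and 1.81 FPKM in MA9 leukemia cells. The macrophage libraries also carried B cell, T cell and NK cell RNA, and its part in these receptor levels was not tested.

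**Figure D5:**
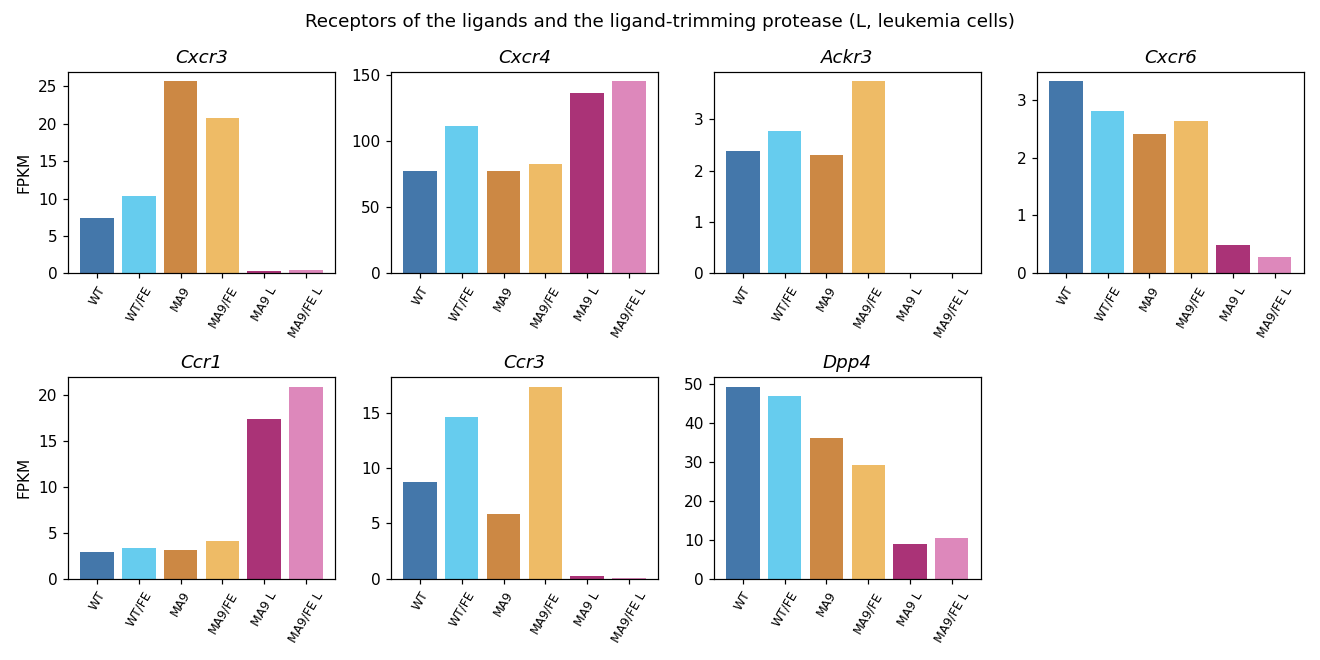
FPKM of 6 receptors of the ligands and of Dpp4 in the 6 libraries (bars from 0 on linear axes; L, leukemia cells). Ccr1 and Cxcr4 are highest in leukemia cells, and the other 5 genes are higher in macrophages.

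Genes that act upstream of the inducible ligands were described by fixed lists. In the interferon gamma list (Ifng, its receptors, JAK kinases, Irf1 and targets among them), none of 11 genes was called in any macrophage comparison. Only 1.27% to 4.70% of all genes tested were called in these comparisons, so a count of none in a short list is close to the background. In leukemia cells against macrophages, 6 of 11 were called lower in MA9 mice and 8 of 11 in MA9/FE mice, none higher, against 12.6% and 13.2% of all genes called lower. Irf1, a transcription factor gene induced by interferon, was at 54.9 to 63.5 FPKM in macrophages and 30.6 and 18.7 FPKM in leukemia cells. Gbp2, an interferon-induced GTPase gene, was at 10.1 FPKM in MA9 and 3.47 FPKM in MA9/FE leukemia cells and was the 1 gene of 10 tested that was called in that comparison. In the NF-kappaB list, 7 of 10 were called lower in leukemia cells in both pairs, against the same 12.6% and 13.2%. None of the 10 was called in a macrophage comparison, against the same 1.27% to 4.70%. In the type 2 cytokine list, 1 gene was called higher and none lower in each of the 4 macrophage comparisons, of 8 or 9 tested. Over all genes tested, 0.728% to 3.79% were called higher and 0.543% to 1.64% lower. The gene was Mrc1, the mannose receptor gene, in both iron comparisons (9.13 to 19.4 FPKM in WT and 7.34 to 17.1 FPKM in MA9 macrophages) and Chil3, a chitinase-like gene of myeloid cells, in both leukemia comparisons (0.471 to 88.9 FPKM with PBS and 1.28 to 43.4 FPKM with iron dextran). Both calls are also counted above, Mrc1 in the macrophage list and Chil3 in the monocyte list.

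For the 5 members whose highest and lowest log2 levels were at least 2 apart, the genes with the most similar levels were sought among 1442 genes of the same range by Pearson's r over the 6 libraries, as a description. The 6 points share the split between 4 macrophage and 2 leukemia libraries, so r is high for many genes. Nearest to Cxcl16 was Cd274, which encodes PD-L1 (r = 0.9997), at 37.1 to 49.4 FPKM in macrophages and 2.93 and 2.64 FPKM in leukemia cells. Nearest to Cxcl9 was Gadd45b (r = 0.997), and nearest to Ccl3 was Nfil3 (r = 0.998). Abcd2 was nearest to Ccl9 (r = 0.999), with Ccr1 in the third place (r = 0.998). For Ccl5 it was the immunoglobulin gene Igkv8-24 (r = 0.999), with Lag3 in the third place (r = 0.999).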

How the data were processed

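RNA-seq of sorted macrophages (4 libraries) and leukemia cells (2 libraries) was analysed from the FPKM values that the authors deposited for 54532 genes. The submitters' processing notes name Bowtie2 2.2.5, RSEM and the mouse build mm10. The steps from reads to FPKM beyond these names are not given in the sources used here. Each FPKM times the exon length in GENCODE M21 (54495 genes) was a whole multiple of 1 step per library for 96.8% to 97.0% of values within 0.05 reads. All values of the 10 genes were whole, which gave their reads.

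Pairs of libraries were scaled by TMM (coded by hand in Python 3.11.15 with numpy 2.4.6). Genes with at least 10 reads in 1 library of a pair were tested for a fold of 2 on log2(FPKM + 1). Ratios carry exact Clopper-Pearson intervals at 95% (scipy 1.17.1). The script was checked on simulated data. Groups came from the sample labels, and 7 comparisons were made without p-values. Alternatives were other scalings, a pseudocount of 0.1, read minimums of none and 50, a length correction and a fold with its counting interval. Named genes were the 10 members, their receptors, other ligands of at least 10 FPKM in a library, the fixed lists, and the 3 genes most like each member of a log2 range of at least 2. Members and lists were chosen with earlier results of these data known. Promoters came from the RefSeq table, which matched 6 of the 10 genes. Some genes that this rule names are not reported here.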

Additional observations from a re-analysis of the deposited data

Results flagged for a closer look

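Ccl3 and Ccl4 were on opposite sides of 0 for iron dextran in macrophages and in leukemia cells. The log2 difference of Ccl3 was -0.30 in WT/FE against WT macrophages, -0.26 in MA9/FE against MA9 macrophages and 0.45 in MA9/FE against MA9 leukemia cells. For Ccl4 the values were -0.49, -0.65 and 0.39. Each counting interval lay off a ratio of 1, but with 1 library per condition the difference between the cell kinds was not tested, and neither gene reached a fold of 2 in these comparisons.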

How the results depend on the processing

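No paired analysis was possible because each condition has 1 library, and no replicate could be left out for the same reason. No called member changed direction under any alternative. In MA9/FE against MA9 leukemia cells, 4 members were called with a pseudocount of 0.1 and 4 with a fold of 2 on the ratio with its counting interval, in place of 0, since a pseudocount of 1 FPKM shrinks differences of low genes. In the other 6 comparisons the count of called members stayed within 1.5 times. With the trend on exon length removed, the log2 difference of Ccl5 was 0.20 in MA9/FE against WT/FE macrophages and -0.21 in MA9/FE against MA9 macrophages, and the cause was not tested. With a pseudocount of 0.1, 6 log2 differences of Cxcl9, Cxcl10, Cxcl16 and Ccl5 between leukemia cells and macrophages grew in size, by the same construction. Small uncalled differences changed sign for Ccl5 in MA9 against WT macrophages (other scalings), and for Ccl24 in MA9/FE against WT/FE macrophages and Ccl4 in MA9/FE leukemia cells against macrophages (length trend). With 1 library per condition, differences between mice are not measured and counting error is only a lower limit on the error. Cxcl12 and Ccl24 are limited by depth, with at most 39 and 12 reads.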

Other observations

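Of the 36 other protein-coding chemokine ligand genes, 10 had at least 10 reads in a library and 13 had 0 reads in all libraries. They summed to 24.1, 16.2, 36.6 and 34.7 FPKM in the 4 macrophage libraries (WT, WT/FE, MA9, MA9/FE) and to 14.5 and 13.7 FPKM in MA9 and MA9/FE leukemia cells. Xcl1, a ligand gene of NK cells and T cells that recruits dendritic cells through XCR1, was the only one to reach 10 FPKM. Its level was 12.4, 6.03, 19.0 and 17.8 FPKM in the macrophage libraries and it had 0 reads in both leukemia libraries. It was called higher in MA9/FE against WT/FE macrophages, with a log2 difference of 1.44 (ratio 3.0, interval 2.18 to 4.19). It was not called in MA9 against WT macrophages (ratio 1.54, interval 1.22 to 1.96). Nor was it called in WT/FE against WT macrophages (ratio 0.483, interval 0.344 to 0.670), where the WT/FE library held 53 reads.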
